A study of Arabidopsis thaliana with 15 samples.

Results

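The young rosette leaf 6 of WT *Arabidopsis* (Col-0) was sequenced in 2 groups whose labels place them without or before treatment. These 6 of the 15 libraries of the series are described here. Both groups are called untreated or resting by their labels alone. The first group, mock, was leaf 6 of plants without small molecule treatment and was the control of the experiment in which GSH or Glu (100 mM each, 1 h) was given to leaf 1. The second, wounding mock, was leaf 6 sampled ahead of wounding and was the control of the experiment in which leaf 1 was wounded and leaf 6 taken 1 h later. Each group had 3 libraries. Members were chosen by these labels, and genes with 1 FPKM or more in 3 or more of the 6 libraries were tested. Plants were 22 to 24 days old and kept at 22 °C with 10 h light and 14 h dark. In the methods of the study, small molecules were given to a leaf 1 that had been cut beforehand and left to recover. The labels do not say whether leaf 1 of the mock plants had been cut, nor on which day or at which hour either group was harvested, so prior cutting, harvest and experiment cannot be told apart in this comparison. Nothing states that the libraries of a group came from separate plants, and p-values measure only the spread between these libraries.

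A resting leaf expresses genes of photosynthesis at a high level, and it keeps defense at a low level through JAZ proteins, repressors that bind the bHLH factor MYC2. When a leaf is wounded, galactolipids are oxidized by the lipoxygenase LOX2 and turned into jasmonic acid (JA) by AOS, AOC and OPR3. The amino acid conjugate of JA then leads to destruction of JAZ proteins, and MYC2 activates JA synthesis genes, JAZ genes themselves and outputs such as the vegetative storage proteins VSP1 and VSP2. A separate set of bHLH factors with the small peptides of the IRON MAN (IMA) family answers iron deficiency.

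FPKM counts fragments per length of transcript and per number of mapped fragments. Sums of FPKM were 561200 to 577265 in mock and 548167 to 580837 in wounding mock, and the depth behind the values is unknown. Wounding mock replicate 1 stood apart. It had 18664 genes above 0, against 21318 to 21506 in the other 5, and its smallest 5% of values above 0 reached up to 0.317 FPKM, against 0.0623 to 0.0710 FPKM. It correlated with the others at 0.941 to 0.948 across tested genes (log2(FPKM + 1)), while the other 5 correlated with each other at 0.976 to 0.990. It lay more than 1 log2 unit below all the others in 613 genes and above all of them in 59. In the other 5 libraries these counts were 2 to 5 and 0 to 3. Genes of the chloroplast genome took 0.215% of its FPKM, against 0.0578% to 0.0715% in the other 5 untreated libraries. This share was not particular to it. Among treated libraries, wounding replicate 1 had 0.240% and wounding replicate 3 had 0.138%, and the rest had 0.0545% to 0.0677%. Results are therefore given with all 6 libraries and without this one.

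Genes of photosynthesis were the most abundant in resting leaf 6. RBCS1A, a small subunit gene of Rubisco, was the most abundant mRNA, with 11077, 11122 and 11111 FPKM in mock and 11991, 11266 and 11418 FPKM in wounding mock. It was followed by the light-harvesting gene LHCB1.3 (9218 ± 844 FPKM in mock, 10133 ± 1560.5 FPKM in wounding mock, SD, n = 3 each) and by RBCS3B, a further Rubisco subunit gene (7270.1 ± 566 FPKM and 7756 ± 1724 FPKM). LHCB1.2, LHCB1.5, LHCB5, PSBR and PSBP1, all parts of photosystem II or its antenna, RBCS2B and THI1, an enzyme of thiamine synthesis, completed the 10 highest genes. These 10 held 9.59% of the summed mean FPKM and the 100 highest held 32.3%, of which 47 were on the lists of light-harvesting and photosystem subunits or of the Calvin cycle. RBCS and LHCB1 genes are near-identical copies, so the split of reads between them is uncertain.

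As shares of FPKM, light-harvesting and photosystem genes took 13.1% to 16.0% in mock and 15.2% to 16.9% in wounding mock. Calvin cycle genes took 6.49% to 7.12% in mock and 6.20% to 7.27% in wounding mock. Over the 6 libraries the median SD on the log2 scale was 0.20 for the first list and 0.14 for the second, beside 0.21 over all tested genes. None of the 44 and 20 members was called. In 6 of the 44, LHCB1.2 among them, all mock libraries lay below all wounding mock libraries, and in 1 above. Over all tested genes these shares were 5.95% below and 7.49% above.

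Markers of leaf tissues were present and those of other organs near 0. The epidermal genes ATML1 (22.7, 25.6 and 23.8 FPKM in mock, 30.1, 24.0 and 25.7 FPKM in wounding mock), PDF1, FDH, CER1 and LTP1 were all expressed. So was SUC2, the sucrose carrier of phloem companion cells, with 113, 123 and 115 FPKM in mock and 108, 117 and 131 FPKM in wounding mock. APL, SWEET11 and SWEET12 of the phloem and FAMA, MYB60, KAT1, SLAC1, TMM and EPF1 of the guard cell lineage were also present, and SPCH, which starts that lineage, was at 0.389 to 0.506 FPKM in mock and 0.667 to 1.89 FPKM in wounding mock. Of the trichome genes, GL2 had 1.53 to 2.76 FPKM in mock and 1.54 to 2.87 FPKM in wounding mock, GL3 and TRY were below 1 FPKM, and GL1 was listed at 0. All 8 root markers together (COBL9, EXPA7, RHD6, WER, WOX5, CASP1, CASP2 and IRT1) summed to 0.162 to 0.619 FPKM in mock and 0.307 to 0.363 FPKM in wounding mock. The 5 meristem markers (STM, WUS, CLV3, KNAT1 and KNAT2) summed to at most 0.180 FPKM in mock and 0.148 FPKM in wounding mock. The 8 flower and seed markers (AP1, AP3, PI, AG, SEP3, SESA1, CRA1 and OLEO1) summed to at most 1.01 FPKM in mock and 0.573 FPKM in wounding mock. No marker of any list was called. The 5 epidermal markers all had a log2 fold change below 0 (median -0.30), 4 of 5 did without wounding mock replicate 1 (median -0.11), and they summed to 871 to 983 FPKM in mock and 1041 to 1373 FPKM in wounding mock, and their part in the differences described here was not tested. In whole leaves, fewer cells of a type and less RNA per cell cannot be told apart.

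The morning clock genes CCA1 and LHY were low and the evening genes TOC1 and GI high in both groups. This did not hold for all morning genes. The 12 morning-phased genes listed summed to 109 to 114 FPKM in mock and 86.5 to 126 FPKM in wounding mock. The 11 evening-phased genes summed to 3221 to 3835 FPKM in mock and 2223 to 3610 FPKM in wounding mock. TOC1 and GI, with values given below, made up only a small part of that sum. CCA1, a factor that peaks at dawn, was at 0.483, 0.628 and 0.616 FPKM in mock and 1.60, 1.00 and 1.19 FPKM in wounding mock, so the groups did not overlap, but it did not pass the test (log2 fold change -0.51 with a standard error, SE, of 0.19 and a limma adjusted p = 0.76). LHY, its partner, was below 0.6 FPKM in each of the 6 libraries. TOC1, which peaks at dusk and represses both, had 66.9, 64.3 and 72.4 FPKM in mock and 42.2, 69.1 and 64.8 FPKM in wounding mock, and GI, a scaffold of the evening clock, had 62.0, 65.9 and 65.8 FPKM in mock and 75.0, 65.6 and 62.5 FPKM in wounding mock. None of the 8 morning-phased genes tested (median log2 fold change -0.16) and none of the 11 evening-phased genes tested (0.16) was called, beside a median of 0.03 over all tested genes. Without wounding mock replicate 1 the medians were -0.28 and 0.02, beside -0.03, and none was called. All mock libraries then lay below the other group in 5 of the 8 morning-phased genes, an order seen in 14.5% of all tested genes. With all 6 libraries this held for 2 of the 8, beside 5.95% of all tested genes. PR1, the marker of salicylic acid defense, was at 0 in 5 of the 6 libraries and at 0.0033 FPKM in mock replicate 2.

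Most genes that differed between the resting groups were higher in mock, among them genes that make JA or answer it. A gene was called at an adjusted p under 0.05 (limma on log2(FPKM + 1), Benjamini-Hochberg) with an absolute log2 fold change above 1. Of 16739 genes tested, 38 were higher in mock (0.227%) and 1 was lower (0.00597%), while 993 had an unadjusted p under 0.05. The groups did not overlap for any of the 39, nor for 7.49% of all tested genes with mock above and 5.95% with mock below. Without wounding mock replicate 1, 57 genes were higher in mock (0.341%) and 10 were lower (0.0597%), and 1451 had an unadjusted p under 0.05. Then 38 genes were shared, which is 97.4% of the 39 and 56.7% of the 67. The count rested on the mock libraries too, with 6 genes called without mock replicate 1, 4 without mock replicate 2 and 24 without mock replicate 3.

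**Figure D1:**
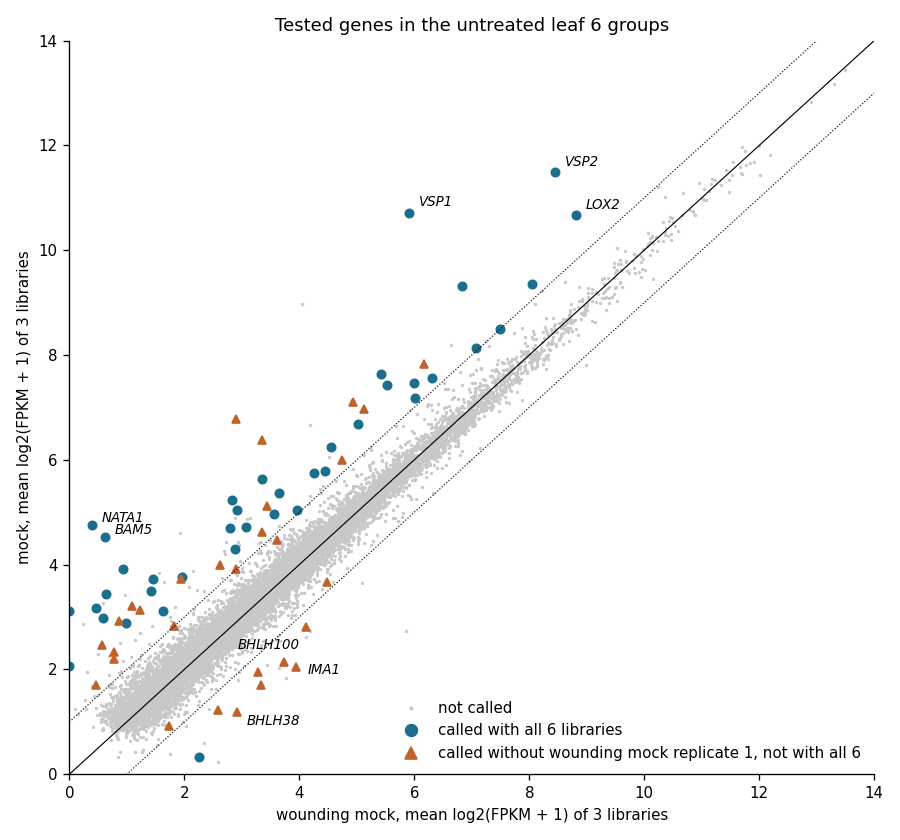
Each point is one of 16739 tested genes, with its mean log2(FPKM + 1) over 3 wounding mock libraries on the x axis and over 3 mock libraries on the y axis; the solid line marks equal means and the dotted lines a log2 difference of 1. Circles are the 39 genes called with all 6 libraries, of which 38 lie above the line, and triangles the 29 called without wounding mock replicate 1 and not with all 6.

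Among called genes, the largest change on this scale was that of VSP1 (AT5G24780), a storage protein of the acid phosphatase family. It had 1988, 1907 and 1255 FPKM in mock and 105, 49.6 and 39.5 FPKM in wounding mock. Every mock library was thus more than 10 times as high as every wounding mock library, and the ratio of the means was 26.5. On the log2 scale it rose by 4.81 (SE 0.36, limma adjusted p = 0.0046), and by 5.22 without wounding mock replicate 1. Its tandem neighbour VSP2 (AT5G24770) had 3237, 3180.4 and 2301 FPKM in mock and 428, 291 and 332 FPKM in wounding mock (log2 fold change 3.05, SE 0.19, limma adjusted p = 0.0025). With a mean of 2906 ± 525 FPKM in mock (SD, n = 3), VSP2 approached the level of PSBP1 there, against 351 ± 70.4 FPKM in wounding mock. VSP1 and VSP2 are close copies, so reads may be split between them.

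The windows below show 250 bases before and 50 bases after the annotated gene start in RefSeq's TAIR10.1 for the 2 storage protein genes, for the JA synthesis gene AOS and for the iron regulator BHLH38 described further on. They are printed because MYC2 is known to bind the G-box, CACGTG, and the related AACGTG, and iron bHLH factors are also known to bind E-box motifs of that kind. Both motifs were searched on both strands, and capitals mark the matches. VSP1 is on the minus strand of chr5:8509152-8509451, VSP2 on that of chr5:8502175-8502474, AOS on that of chr5:17099546-17099845 and BHLH38 on that of chr3:21085196-21085495.
VSP1: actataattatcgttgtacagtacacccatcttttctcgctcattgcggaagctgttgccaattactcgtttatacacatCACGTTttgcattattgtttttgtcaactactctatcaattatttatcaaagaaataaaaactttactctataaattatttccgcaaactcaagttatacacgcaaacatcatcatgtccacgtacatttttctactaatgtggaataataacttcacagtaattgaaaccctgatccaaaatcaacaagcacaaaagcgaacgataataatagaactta
VSP2: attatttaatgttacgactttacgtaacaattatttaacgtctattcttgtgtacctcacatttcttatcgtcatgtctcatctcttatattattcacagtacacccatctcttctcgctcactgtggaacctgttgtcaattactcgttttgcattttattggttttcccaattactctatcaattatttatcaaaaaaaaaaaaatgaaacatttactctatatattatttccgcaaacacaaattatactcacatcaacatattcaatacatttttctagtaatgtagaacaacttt
AOS: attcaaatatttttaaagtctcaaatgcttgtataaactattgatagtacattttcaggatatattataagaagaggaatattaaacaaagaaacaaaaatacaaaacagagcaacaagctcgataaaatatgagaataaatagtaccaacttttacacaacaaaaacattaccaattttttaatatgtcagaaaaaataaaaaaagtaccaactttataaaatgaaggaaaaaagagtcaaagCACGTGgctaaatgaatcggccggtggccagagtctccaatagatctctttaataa
BHLH38: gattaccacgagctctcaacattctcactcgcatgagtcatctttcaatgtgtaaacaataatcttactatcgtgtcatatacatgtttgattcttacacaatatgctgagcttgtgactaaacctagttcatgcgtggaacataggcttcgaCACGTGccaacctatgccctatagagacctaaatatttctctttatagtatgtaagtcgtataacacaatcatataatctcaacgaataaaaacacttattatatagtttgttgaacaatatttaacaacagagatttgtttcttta
VSP1 held 1 match of AACGTG, AOS and BHLH38 each held 1 of CACGTG, and VSP2, which rose in mock as well, held neither. Of the 7 iron genes that were lower in mock without wounding mock replicate 1, BHLH38, BHLH100 and FRO3 held CACGTG, BHLH39, BHLH101, IMA1 and IMA2 did not, and none held AACGTG. Of the 38 genes higher in mock, 7 held CACGTG (18.4%) and 8 held AACGTG (21.1%). In the windows of 16191 tested genes the shares were 9.06% and 8.36%, and in those of all 27443 protein-coding genes of the nuclear chromosomes 7.68% and 8.95%. A match is a description of letters, and binding was not measured.

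The enzymes that make JA were higher in mock from the first step on. LOX2, the lipoxygenase of the chloroplast, had 1665, 1989 and 1293 FPKM in mock and 395, 503 and 449.7 FPKM in wounding mock (log2 fold change 1.86, SE 0.18, limma adjusted p = 0.0089). AOS, which makes the allene oxide, had 179.7, 216 and 175 FPKM in mock and 71.6, 76.8 and 87.0 FPKM in wounding mock (1.26, SE 0.13, limma adjusted p = 0.0095). AOC2, the cyclase that follows, had 299, 274 and 263 FPKM in mock and 139, 132 and 130.2 FPKM in wounding mock. For each of these enzymes the lowest mock library lay above the highest wounding mock library. OPR3, the reductase of the peroxisome, had 54.5, 57.0 and 51.3 FPKM in mock and 17.8, 25.2 and 20.4 FPKM in wounding mock (1.33, SE 0.14, limma adjusted p = 0.012). OPCL1, the CoA ligase ahead of beta-oxidation, had 33.7, 33.1 and 29.0 FPKM in mock and 14.4, 14.1 and 15.3 FPKM in wounding mock. Its log2 fold change was 1.08 and that of AOC2 was 1.05, close to the threshold of 1. AOC1, a near copy of AOC2, had 3.54, 4.56 and 4.03 FPKM in mock and 0, 1.21 and 1.29 FPKM in wounding mock, and did not pass with all 6 libraries (adjusted p = 0.21 from limma) but did without wounding mock replicate 1 (1.16, adjusted p = 0.016 from limma).

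Not every pathway gene was called, though for most of those tested all mock libraries lay above all wounding mock libraries, as counted below. LOX3 and LOX4, further lipoxygenases, had log2 fold changes of 0.25 and 0.68, and LOX6 of 0.07. JAR1, which joins JA to isoleucine, was at 33.8, 35.5 and 32.2 FPKM in mock and 42.0, 30.6 and 32.5 FPKM in wounding mock, with overlapping groups. Of the genes that oxidize the hormone, CYP94B3 was at 0 in all 6 libraries, CYP94C1 reached 0.655 FPKM in mock and 0.272 FPKM in wounding mock, and JOX1 was at 0. At such values a difference between the groups cannot be read. JOX2, a further JA hydroxylase, had 6.00, 5.73 and 8.37 FPKM in mock and 0, 1.61 and 1.32 FPKM in wounding mock, and it did not pass with all 6 libraries (limma adjusted p = 0.12) but did without wounding mock replicate 1 (1.63, SE 0.17, limma adjusted p = 0.0088).

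Of the 26 genes on the list of JA synthesis, turnover and output, 17 were tested, 8 rose in mock and none fell, with a median log2 fold change of 1.3 beside 0.03 over all tested genes. The groups did not overlap, with mock above, for 15 of the 17, as for 7.49% of all tested genes. Of all tested genes, 0.227% were called higher with 6 libraries. Without wounding mock replicate 1, 11 rose, with a median of 1.2, as did 0.341% of all tested genes. The summed FPKM of the list was 8017, 8257 and 5814 in mock and 1377, 1334 and 1305 in wounding mock. Its 8 called members were VSP1, VSP2, LOX2, AOS, AOC2, OPR3, OPCL1 and CLH1, a chlorophyllase gene known to answer JA, with 169.7, 194 and 155 FPKM in mock and 45.3, 53.9 and 37.3 FPKM in wounding mock. CORI3, a cystine lyase of JA response, had 259, 271 and 168 FPKM in mock and 49.0, 84.3 and 86.5 FPKM in wounding mock and did not pass with all 6 libraries (adjusted p = 0.094 from limma) but did without wounding mock replicate 1 (1.4, adjusted p = 0.042 from limma). Only 1 member was called without mock replicate 1 and 1 without mock replicate 2.

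**Figure D2:**
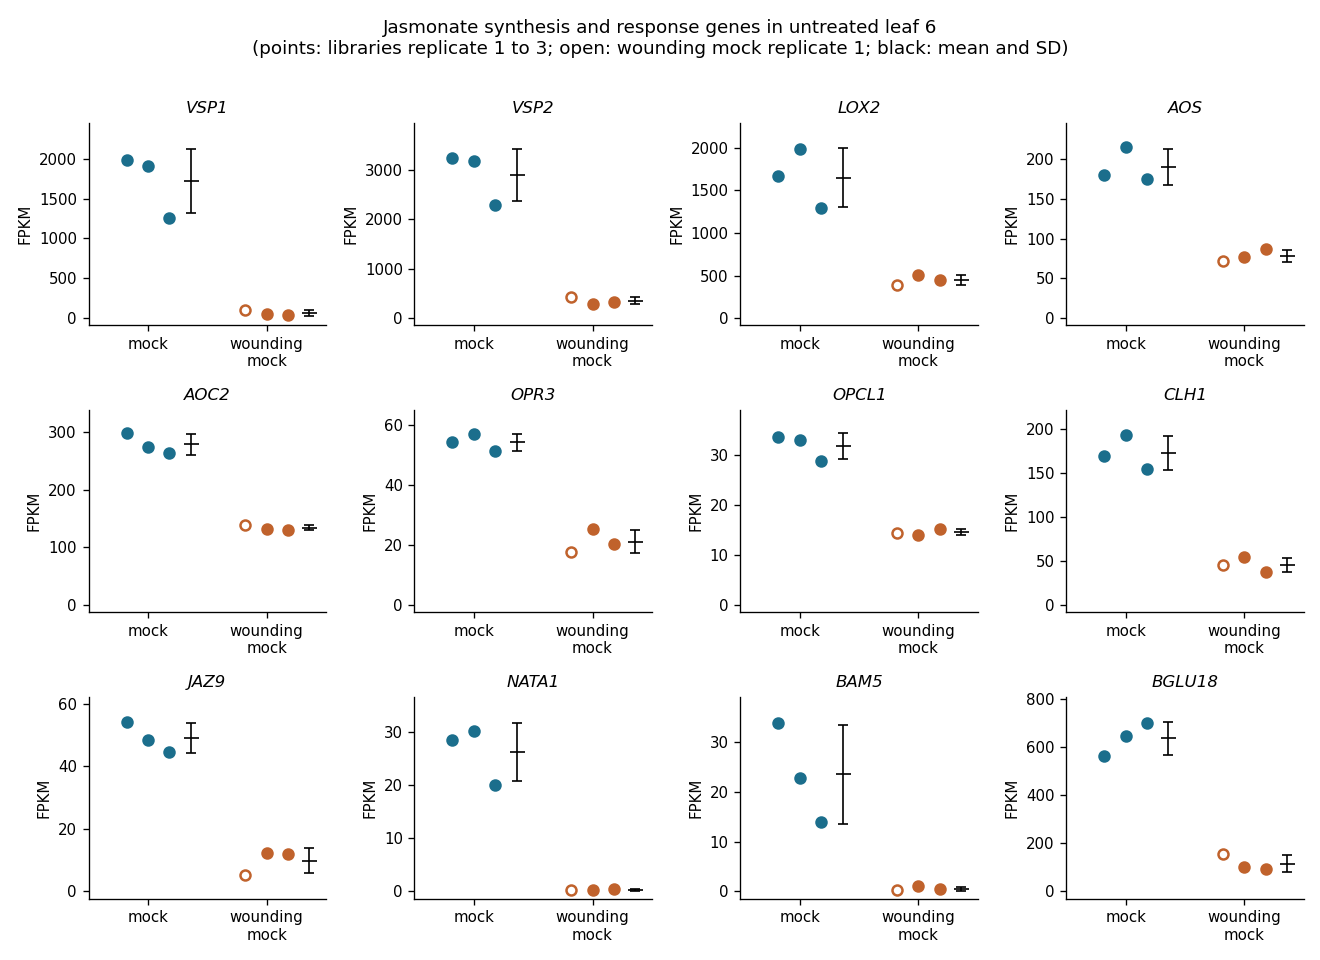
FPKM of 12 genes of JA synthesis and response in each untreated library, mock on the left and wounding mock on the right of each panel, with axes starting at 0 and black bars for mean and SD of 3 libraries. In every panel the mock libraries lie above the wounding mock libraries, for VSP1 between 1255 and 1988 FPKM against 39.5 to 105 FPKM.

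Among JAZ repressors, JAZ9 rose in mock. It had 54.2, 48.5 and 44.7 FPKM in mock and 5.13, 12.4 and 11.8 FPKM in wounding mock (log2 fold change 2.3, SE 0.29, limma adjusted p = 0.034). JAZ9 lost its call in the fit with replicate numbers as a block (adjusted p = 0.051 from limma), and over the alternatives its adjusted p ranged from 1.7e-05 to 0.25. JAZ1 had 10.2, 7.84 and 6.98 FPKM in mock and 0.144, 1.67 and 2.12 FPKM in wounding mock, and JAZ6 had 15.1, 13.2 and 16.3 FPKM in mock and 3.48, 5.61 and 6.95 FPKM in wounding mock. With all 6 libraries neither passed (adjusted p = 0.11 and 0.093 from limma), and both did without wounding mock replicate 1 (log2 fold changes 1.68 and 1.13, adjusted p = 0.0071 and 0.014 from limma). JAZ1, JAZ6, AOC1, CORI3 and JOX2 also passed with all 6 libraries when all groups were in the fit, with library weights and with quantile normalization. JAZ10, a splice-regulated repressor that attenuates JA response, was at rest in both groups, with 0.470, 0.525 and 0.787 FPKM in mock and 1.36, 0.421 and 0.108 FPKM in wounding mock. Of 13 JAZ genes, 8 were tested. In 7 of these all mock libraries lay above all wounding mock libraries, an order seen in 7.49% of all tested genes. JAZ11 was the one that overlapped (4.75, 3.89 and 5.07 FPKM in mock, 6.61, 4.68 and 4.22 FPKM in wounding mock). JAZ4, JAZ7, JAZ8 and JAZ13 stayed below 0.5 FPKM in every library. The list had a median log2 fold change of 0.83, and of 0.88 without wounding mock replicate 1.

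A second layer of called genes consists of defense proteins and enzymes outside those lists. NATA1 (AT2G39030), an acetyltransferase acting on ornithine and polyamines, had 28.6, 30.3 and 20.1 FPKM in mock and 0.230, 0.190 and 0.525 FPKM in wounding mock. It was thus nearly silent in one resting group and clearly expressed in the other (a ratio of means of 83.5, log2 fold change 4.36, SE 0.19, limma adjusted p = 0.0007). BAM5, a beta-amylase gene, had 33.9, 22.7 and 13.9 FPKM in mock and 0.208, 1.02 and 0.485 FPKM in wounding mock (3.91, SE 0.33, limma adjusted p = 0.0046). AT1G73325, a Kunitz-type protease inhibitor, had 10.0, 12.0 and 8.02 FPKM in mock and 0.646, 0.956 and 0.174 FPKM in wounding mock, a log2 fold change of 2.81. FAMT, which methylates farnesoic acid, had 39.5, 33.8 and 36.3 FPKM in mock and 3.85, 6.17 and 9.25 FPKM in wounding mock, a log2 fold change of 2.40.

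Genes of the glucosinolate and myrosinase system were among them. BGLU18, a beta-glucosidase of ER bodies, had 564, 644 and 699.9 FPKM in mock and 155, 101 and 91.6 FPKM in wounding mock (2.48, SE 0.20, limma adjusted p = 0.0046), and TSA1, the neighbouring gene, whose protein also resides in ER bodies, had 68.4, 75.0 and 82.4 FPKM in mock and 28.4, 21.2 and 18.9 FPKM in wounding mock. MBP1 and MBP2 encode myrosinase-binding proteins. MBP1 had 6.66, 7.04 and 6.97 FPKM in mock and 0.249, 1.17 and 0.252 FPKM in wounding mock, and MBP2 had 8.14, 9.94 and 13.2 FPKM in mock and 0.971, 2.73 and 1.61 FPKM in wounding mock. The jacalin-related lectins JAL23 and JR1 rose by 2.98 and 1.67 on the log2 scale, with 13.7, 12.6 and 16.0 FPKM of JAL23 in mock and 0, 1.87 and 1.4 FPKM in wounding mock. CYP81F4, a P450 that modifies indole glucosinolates, had 6.28, 9.96 and 8.25 FPKM in mock and 0.401, 0.527 and 0.235 FPKM in wounding mock, a log2 fold change of 2.71. JR1 and CYP81F4 each overlap a gene on the opposite strand, and strand use in counting is not stated.

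BCAT4, the aminotransferase that starts methionine chain elongation, was the one aliphatic glucosinolate gene called, with 194, 161 and 172 FPKM in mock and 61.5, 56.9 and 70.5 FPKM in wounding mock (1.47, SE 0.12, limma adjusted p = 0.0047). It too overlaps a gene on the opposite strand. The other genes of the pathway shifted less. MAM1, the synthase after BCAT4, had 328, 287 and 304 FPKM in mock and 127, 140.2 and 196 FPKM in wounding mock (1.01, adjusted p = 0.10 from limma). In 14 of 19 members tested, all mock libraries lay above all wounding mock libraries, as in 7.49% of all tested genes. With a median of 0.66, 18 of the 19 had a log2 fold change above 0. The exception was MYB28, the main regulator of the pathway, at 36.6, 31.2 and 31.7 FPKM in mock and 26.7, 40.8 and 47.4 FPKM in wounding mock.

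HPL1 and CHAT, enzymes of green leaf volatiles chosen after their values were seen, also rose. HPL1, the hydroperoxide lyase, had 22.3, 26.4 and 26.4 FPKM in mock and 3.76, 8.34 and 6.49 FPKM in wounding mock, a log2 fold change of 1.91. CHAT, which acetylates hexenol, had 6.79, 6.70 and 5.77 FPKM in mock and 0.550, 1.28 and 1.21 FPKM in wounding mock, a log2 fold change of 1.90. GolS1, a galactinol synthase, and DHAR1, which regenerates ascorbate at the cost of glutathione, rose by 1.79 and 1.31 on the log2 scale. DHAR1 had 709.6, 723 and 554 FPKM in mock and 213, 293 and 299 FPKM in wounding mock.

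Further genes that rose belong to hormone turnover, the cell wall and small secreted proteins. ILL6, an amidohydrolase that splits amino acid conjugates of JA, had 7.47, 7.58 and 8.11 FPKM in mock and 1.58, 2.23 and 2.51 FPKM in wounding mock, a log2 fold change of 1.5. TBL26, of a family that acetylates wall polymers, had 33.1, 40.8 and 24.1 FPKM in mock and 5.26, 7.15 and 7.34 FPKM in wounding mock, a log2 fold change of 2.13. FLR1, a leucine-rich repeat gene, lay between 17.2 and 20.9 FPKM in mock and between 5.74 and 7.41 FPKM in wounding mock. AT3G51450, annotated as a phosphotriesterase, varied little within groups, with 24.8, 25.1 and 26.1 FPKM in mock and 7.74, 7.14 and 7.25 FPKM in wounding mock (1.65, SE 0.10, limma adjusted p = 0.0025). AT2G43530 and AT2G43550, knottin genes of the defensin kind, stood near the threshold at 1.16 and 1.00. AT2G43550 had 353, 358 and 365 FPKM in mock and 161, 184 and 193 FPKM in wounding mock, and its log2 fold change was 0.93 without wounding mock replicate 1. AT2G34810, a berberine bridge enzyme-like gene, AT1G06640, a dioxygenase gene, and AT4G29700, an alkaline phosphatase-like gene, rose by 1.73, 1.51 and 2.27 on the log2 scale, the last of them opposite to another gene.

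The annotation places 8 of the 38 higher genes over a second gene, as it does for 34.2% of tested genes. For some, the reads may belong to the partner. AT1G32630 had 27.5, 33.1 and 30.8 FPKM in mock and 9.50, 12.1 and 10.8 FPKM in wounding mock, and lies opposite to MYC2, which was listed at 3.99, 0 and 0.666 FPKM in mock and 0, 0.462 and 0 FPKM in wounding mock. Reads of this pair cannot be told apart, so no value is read for MYC2. AT1G66820 was listed at 7.02, 9.51 and 6.75 FPKM in mock and at 0 in every wounding mock library, and it lies opposite to the receptor kinase gene AT1G66830, at 7.47, 8.41 and 10.5 FPKM in mock and 11.7, 10.2 and 11.3 FPKM in wounding mock. FdC1, a ferredoxin-like gene opposite to AT4G14900 (37.7, 38.2 and 42.3 FPKM in mock, 47.5, 43.2 and 41.6 FPKM in wounding mock), was at 3.29, 2.85 and 3.45 FPKM in mock and at 0 in wounding mock. No fold is given for these 2 genes.

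AT1G13608, a defensin-like gene, was the 1 gene that fell with all 6 libraries, to 0.200, 0.353 and 0.234 FPKM in mock, against 2.41, 5.62 and 3.85 FPKM in wounding mock (log2 fold change -1.92, SE 0.26, limma adjusted p = 0.044). The call was lost without any one mock library. AT1G13609, a further defensin-like gene noted after its values were seen, had 16.0, 0 and 16.0 FPKM in mock and 11.5, 116 and 132 FPKM in wounding mock and did not pass (-3.13, adjusted p = 0.83 from limma).

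When wounding mock replicate 1 was left out, the further genes that rose included AT4G17470, an alpha/beta-hydrolase gene, and AT1G66100, a thionin gene. AT4G17470 had 148, 141 and 60.4 FPKM in mock and 18.1, 4.49 and 3.01 FPKM in wounding mock (log2 fold change 4.54, SE 0.38, limma adjusted p = 0.0034). AT1G66100 had 64.1, 107 and 81.3 FPKM in mock and 24.7, 6.83 and 4.21 FPKM in wounding mock (3.70, SE 0.24, limma adjusted p = 0.0014). In both genes the library left out was the highest of its group and still below every mock library. ARGAH2, an arginase gene, had 178, 161 and 89.7 FPKM in mock and 19.8, 35.7 and 36.1 FPKM in wounding mock (1.91, limma adjusted p = 0.042), and AT5G23820, of a family of lipid recognition proteins, had 145, 142 and 91.9 FPKM in mock and 61.4, 26.5 and 24.2 FPKM in wounding mock (2.25, limma adjusted p = 0.0042). Besides AT1G13608 and the iron genes described next, AT5G19190 and AT5G48490, a lipid-transfer protein gene, fell. AT5G48490 had 2.14, 1.95 and 2.79 FPKM in mock and 5.95 and 6.69 FPKM in wounding mock replicates 2 and 3 (-1.16, limma adjusted p = 0.022). RD20, a caleosin gene of drought and ABA response, had 41.3, 35.0 and 26.6 FPKM in mock and 5.76, 12.7 and 12.7 FPKM in wounding mock, and was the 1 called member of 17 on the cold and ABA list (1.35, adjusted p = 0.026 from limma).

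The clearest gain without that library was in genes of iron deficiency, of which 7 were called, all lower in mock. BHLH38, a factor that activates iron uptake, had 1.64, 1.22 and 1.04 FPKM in mock and 0.252, 18.9 and 16.0 FPKM in wounding mock. BHLH39, its neighbour and close relative, had 1.41, 1.45 and 1.18 FPKM in mock and 0.417, 11.1 and 11.7 FPKM in wounding mock. BHLH100 had 1.17, 6.28 and 4.47 FPKM in mock and 0.510, 40.6 and 36.3 FPKM in wounding mock, and BHLH101 had 0.780, 0.890 and 1.05 FPKM in mock and 0, 6.27 and 4.03 FPKM in wounding mock. All 4 factors were low in mock and in wounding mock replicate 1 and high in wounding mock replicates 2 and 3. With all 6 libraries, their log2 fold changes of -1.72, -1.36, -1.59 and -0.80 did not pass (adjusted p = 0.83 each from limma). Without replicate 1 they were -3.01, -2.40, -3.16 and -1.67 (adjusted p = 0.00041, 0.00041, 0.043 and 0.014 from limma).

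IMA1 and IMA2, which encode peptides that signal iron deficiency, followed the same order. IMA1 had 3.44, 2.56 and 3.38 FPKM in mock and 4.1, 25.7 and 26.0 FPKM in wounding mock (-2.71 without replicate 1, SE 0.12, limma adjusted p = 0.00041). IMA2 had 3.74, 2.45 and 2.47 FPKM in mock and 1.59, 15.1 and 20.9 FPKM in wounding mock (-2.29, SE 0.19, limma adjusted p = 0.0034). FRO3, a ferric reductase gene, had 8.19, 12.4 and 15.9 FPKM in mock and 6.76, 36.2 and 38.1 FPKM in wounding mock (-1.58, adjusted p = 0.046 from limma). BHLH38, BHLH101 and FRO3 each overlap a gene on the opposite strand, and strand use in counting is not stated. BTS, a ligase that restrains the response, was at 39.7, 59.7 and 62.5 FPKM in mock and 38.5, 101 and 116 FPKM in wounding mock and did not pass (-1.02, adjusted p = 0.11 from limma).

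Of the 14 iron-deficiency genes tested of 15, none was called with all 6 libraries (limma, median -0.73). Without wounding mock replicate 1, 7 were lower (median -1.3, beside -0.03 over all tested genes), as were 0.0597% of all tested genes. In 12 of the 14 all mock libraries lay below both remaining wounding mock libraries, an order seen in 14.5% of all tested genes (10.2% the other way). In 13 of the 14, wounding mock replicate 1 was the lowest library of its group, as it was in 57.2% of all tested genes. Whether the genes differ between the groups thus rests on that library. In the treated libraries of the same series, BHLH38 ranged widely as well, with 11.3 to 69.7 FPKM after GSH, 2.52 to 5.91 FPKM after Glu and 5.87 to 18.7 FPKM after wounding. All of these lay above the highest mock library, at 1.64 FPKM. BHLH39 had the same order, while for BHLH100, BHLH101, IMA1, IMA2 and FRO3 treated and mock libraries overlapped. The 3 ferritin genes tested were not called. FER1, the main leaf ferritin, which stores iron, had 59.2, 50.7 and 31.9 FPKM in mock and 92.4, 28.8 and 19.3 FPKM in wounding mock, highest in wounding mock replicate 1, where BHLH38 was lowest.

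**Figure D3:**
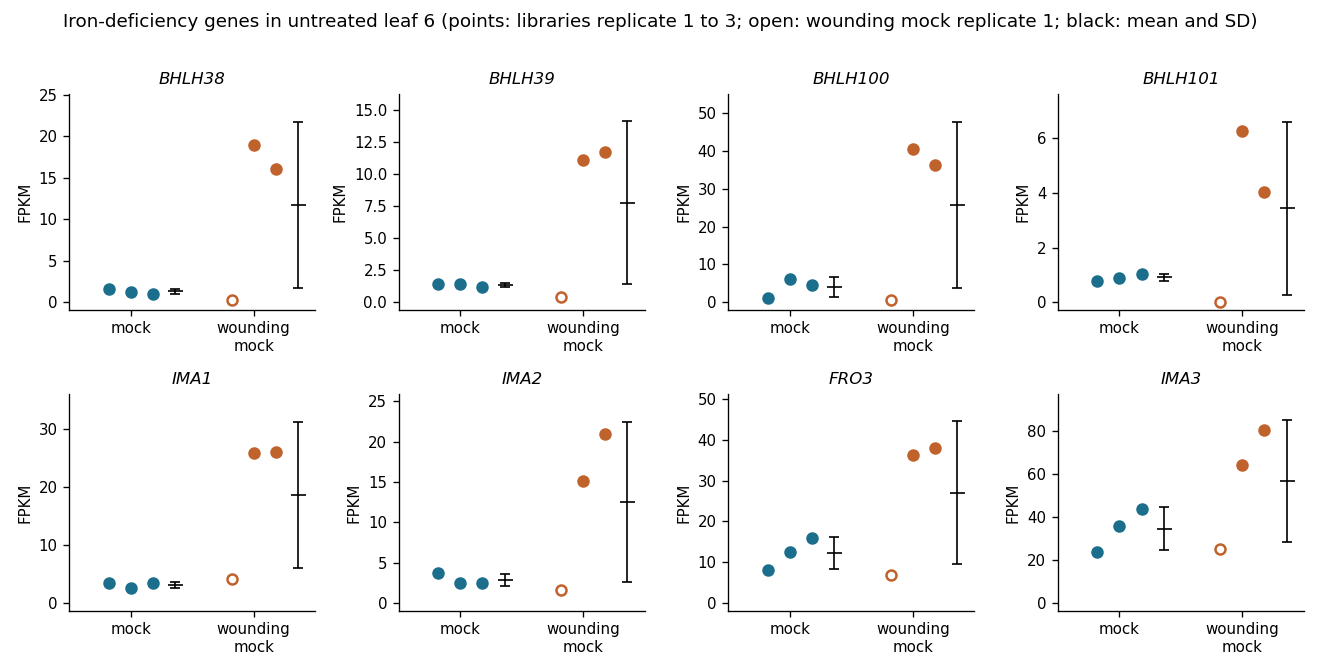
FPKM of 8 iron-deficiency genes in each untreated library, mock on the left and wounding mock on the right of each panel, with axes starting at 0 and black bars for mean and SD of 3 libraries. The open point, wounding mock replicate 1, lies near the mock libraries, and the other 2 wounding mock libraries lie above them, for BHLH38 at 18.9 and 16.0 FPKM.

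Anthocyanin genes varied widely between the mock libraries. DFR, the reductase that commits flavonoids to anthocyanin, had 20.2, 26.1 and 0.571 FPKM in mock and 0, 0.169 and 1.87 FPKM in wounding mock. LDOX, the next enzyme, had 22.2, 24.7 and 1.04 FPKM in mock and 0.322, 0.638 and 2.45 FPKM in wounding mock. Mock replicates 1 and 2 were high and mock replicate 3 lay within the range of wounding mock. The glycosyltransferase gene UF3GT (21.3, 20.9 and 3.21 FPKM in mock, 2.40, 0.798 and 4.1 FPKM in wounding mock) and the transport gene GSTF12 (21.8, 20.6 and 4.91 FPKM in mock, 2.14, 1.64 and 6.22 FPKM in wounding mock) had the same order. CHS, the first enzyme of all flavonoids, had 53.1, 59.6 and 11.9 FPKM in mock and 17.9, 20.3 and 34.4 FPKM in wounding mock. PAP1, a MYB activator of the pathway, was the single member whose groups did not overlap with mock above (24.6, 26.8 and 13.3 FPKM in mock, 5.02, 5.20 and 6.85 FPKM in wounding mock), with a log2 fold change of 1.71 (adjusted p = 0.081 from limma). That order was seen in 7.49% of all tested genes.

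None of the 15 flavonoid and anthocyanin genes tested passed in limma with or without wounding mock replicate 1, although the median log2 fold changes were 1.3 and 0.83. In all 15, mock replicate 3 was the lowest mock library, against 41.3% of all tested genes. The median SD within mock was 0.96 on the log2 scale, beside 0.12 over all tested genes. After GSH and Glu, DFR ranged over 2.65 to 12.1 FPKM and 0.742 to 15.6 FPKM, and after wounding over 1.06 to 1.80 FPKM.

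**Figure D4:**
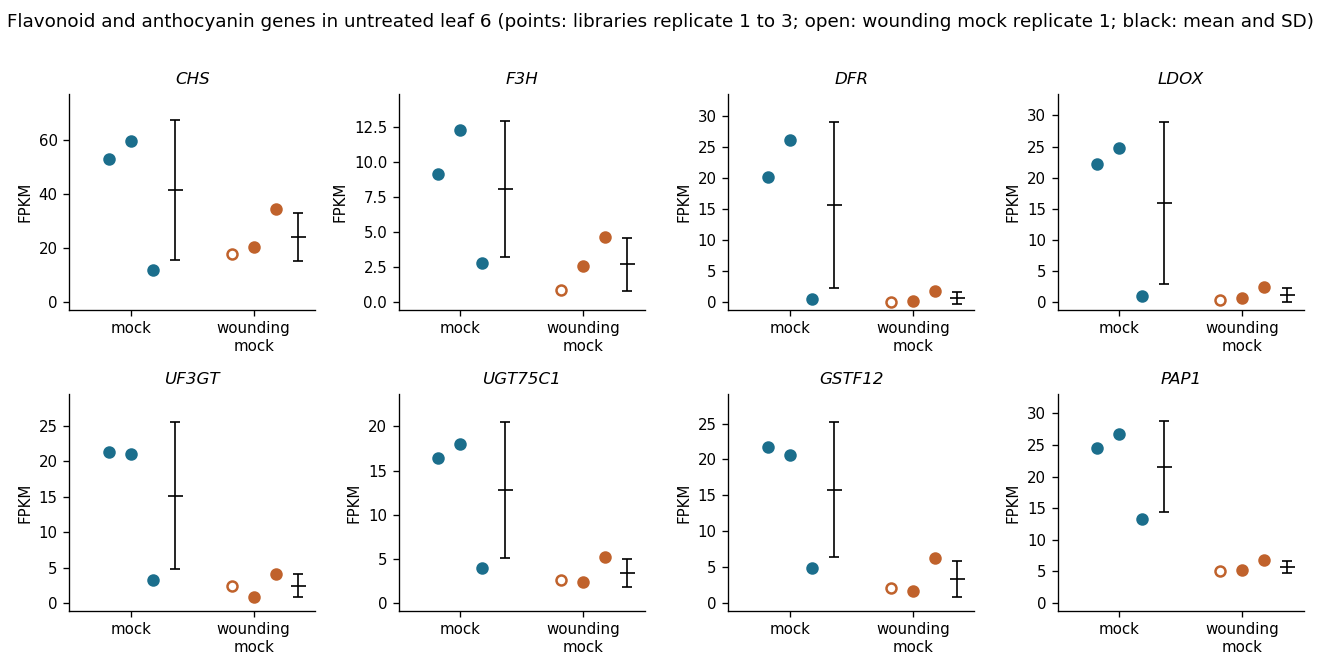
FPKM of 8 flavonoid and anthocyanin genes in each untreated library, mock on the left and wounding mock on the right of each panel, with axes starting at 0 and black bars for mean and SD of 3 libraries. In each panel 2 mock libraries are high and mock replicate 3 is the lowest of its group, for DFR at 0.571 FPKM.

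Of 25 pathway lists, those for JA synthesis and output, JAZ repressors and aliphatic glucosinolates held the called members with 6 libraries, and iron deficiency and cold and ABA were added without wounding mock replicate 1. Of the chlorophyll synthesis genes, 16 of 18 had a log2 fold change below 0, with a median of -0.15 and none called, and the list took 0.620% to 0.683% of FPKM in mock and 0.719% to 0.850% in wounding mock. The 8 sulfur-deficiency genes tested were all above 0 with a median of 0.45, and none was called.

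**Figure D5:**
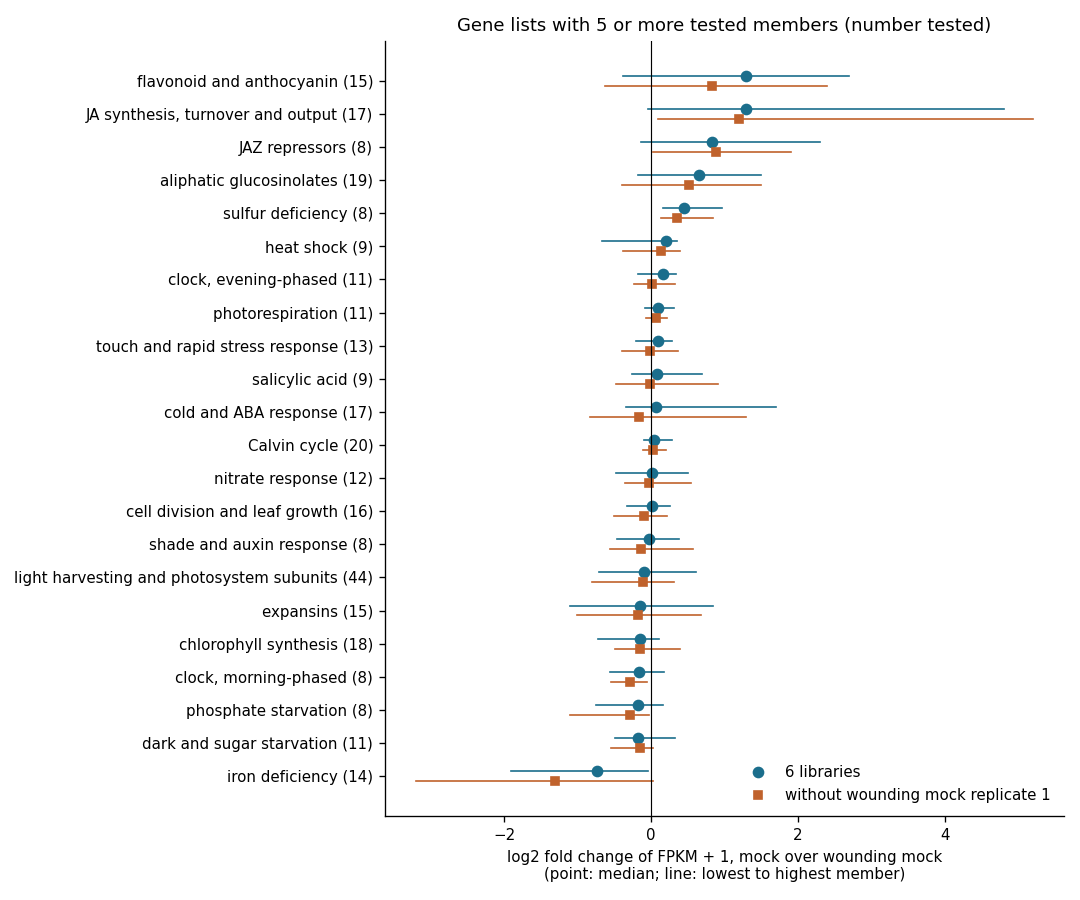
Log2 fold change of FPKM + 1, mock over wounding mock, for 22 gene lists with 5 or more tested members: points are medians and lines run from the lowest to the highest member, in circles with 6 libraries and in squares without wounding mock replicate 1. The lists of JA synthesis and output (median 1.3 and 1.2) and of JAZ repressors (0.83 and 0.88) lie to the right with both, and iron deficiency to the left (-0.73 and -1.3). Flavonoid and anthocyanin genes (1.3 and 0.83), aliphatic glucosinolates (0.66 and 0.52) and sulfur deficiency (0.45 and 0.35) also lie to the right with both.

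The treated libraries of both experiments show where the resting levels stand. VSP1 had 2049, 1432 and 1536 FPKM after GSH, 1852, 1772 and 1985 FPKM after Glu and 908, 811 and 822 FPKM after wounding. The wounded leaves were thus above wounding mock and still below every mock library. VSP2, BCAT4 and AT1G14250, a nucleoside phosphatase gene, had the same order, and FdC1 was below every mock library as well. In 30 of the 38 genes every wounding library lay above every mock library, as in 14.5% of all tested genes. AOS was one of these, with 371, 295 and 285 FPKM after GSH, 371, 314 and 412 FPKM after Glu and 2072, 1995 and 1977 FPKM after wounding. For 36 of the 38, all GSH and Glu libraries lay above all wounding mock libraries, as in 12.2% of all tested genes. The 38 were chosen as low in wounding mock, and GSH and Glu belong to the experiment of mock, so nothing is read from this count. Between the mean of GSH and Glu and wounding, 516 of 17260 genes were higher (2.99%) and 589 were lower (3.41%), and with median-ratio scaling 364 and 727. All genes together had a median of 0.15 there on the log2 scale, and of 0.0058 after that scaling. Of the 38 genes, 37 were tested there, of which 4 were higher and 24 lower. Treatment and experiment cannot be told apart in that comparison.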

How the data were processed

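Leaf 6 RNA was extracted with the Tranzol kit, libraries were made with the NEBNext Ultra kit and paired-end reads were sequenced. Per the study's methods and processing notes, the authors trimmed reads with Cutadapt and Trimmomatic, mapped them with HISAT2 to TAIR10 and obtained expression with StringTie. The authors deposited FPKM values for 32833 genes, 1 column per library, although the table is named as raw counts, so no count test was run. FPKM is already corrected for length and mapped fragments, and the depth is unknown. FPKM + 1 was put on the log2 scale, which makes fold changes of low genes smaller than their ratios.

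Mock was set over wounding mock in limma 3.58.1 (R 4.3.3) with a variance trend, Benjamini-Hochberg adjustment over 16739 genes (1 FPKM or more in 3 or more of 6 libraries) and no block, with all 6 libraries and without wounding mock replicate 1. The thresholds of the study were used for calls (adjusted p 0.05, log2 fold change 1 in either direction). The mean of GSH and Glu was set over wounding in the same way. Gene lists were described by counts and medians with no test of the list. The method was tested on simulated data.

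Named genes were the 10 largest increases and decreases among called genes without overlap of groups and with a mean of at least 1 FPKM in a group, the 5 largest each way without wounding mock replicate 1, the 10 highest genes, called list members, chosen clock, iron, JA and tissue markers, and called genes listed at 0 throughout one group. Other called genes, and genes named beside them for their pathway or position, were chosen after their values were seen. The members and lists were chosen with earlier results of these data known. Alternatives changed the filter, the pseudocount (0.1), scaling, library weights, the libraries in the fit, the threshold and the block. Gene names, overlaps and sequences are from RefSeq's TAIR10.1, in which 99.1% of gene IDs were found, and sequences were read there by gene ID.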

Additional observations from a re-analysis of the deposited data

How the results depend on the processing

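With 6 libraries, the 39 calls (38 higher, 1 lower) became 19 without a filter on low values (19 higher, 0 lower), 84 with library weights (73 and 11) and 82 with all groups in the fit (76 and 6). Lower calls were 0 with 1 FPKM or more in every library and 2 with quantile normalization. Leaving out 1 library in turn gave 4 to 67 calls (4 to 57 higher, 0 to 10 lower). With a replicate block, 36 genes were called (34 higher, 2 lower), of which 32 were shared with the 39. The deviations of libraries with the same number correlated at 0.06, -0.00 and -0.15, and nothing says that the numbers pair the plants. Without wounding mock replicate 1, the 67 calls (57 higher, 10 lower) became 22 with no filter (19 and 3), and lower calls were 19 with the adjusted p alone; leaving out a further library gave 48 to 91 (42 to 78 higher, 6 to 13 lower). These alternatives for 5 libraries were added after seeing the data.

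JAZ repressors called numbered 1, but 4 with all groups in the fit, 3 with library weights or quantile normalization, 2 with median-ratio scaling, 0 with no filter, with a pseudocount of 0.1 and with the replicate block, and 0 to 3 on leaving out a library. The JA synthesis and output list had 8 calls, 5 with no filter and 1 to 11 on leaving out a library. Iron deficiency had 0, but 5 with library weights and 0 to 7 on leaving out a library. For GSH and Glu over wounding, a pseudocount of 0.1 gave 1708 calls in place of 1105, with 994 higher in place of 516. Over 14 alternatives, 2 of the 39 genes, VSP2 and AT3G51450, stayed called in each, and 16 did so in the 8 that left out no library. None of 929 gene values changed sign. The 68 genes behind these values were chosen for their calls in the same libraries, so nothing is read from this count. The causes were not tested. The depth is unknown, so the precision of low values cannot be given.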

Other observations

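Other lists had no called gene in limma with 6 libraries. Photorespiration had a median log2 fold change of 0.10 (11 genes tested), nitrate response of 0.02 (12), heat shock of 0.21 (9), cell division and leaf growth of 0.02 (16), phosphate starvation of -0.17 (8), dark and sugar starvation of -0.18 (11) and expansins of -0.15 (15). EXLA1, an expansin-like gene, had 0.908, 0.990 and 0.800 FPKM in mock and 3.46, 3.63 and 2.32 FPKM in wounding mock, with groups that did not overlap and an adjusted p of 0.10 from limma.

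Several genes had large differences between libraries of one group and were not called. RABE1b (AT4G20360), which encodes a chloroplast elongation factor, had 419, 509 and 585 FPKM in mock and 0.182, 371 and 9.43 FPKM in wounding mock. The sign of its log2 fold change of 4.91 was the same without wounding mock replicate 1 (3.01). It was chosen after its values were seen. CSLA01 (AT4G16590), a cellulose synthase-like gene also chosen after its values were seen, had 4.97, 13.7 and 3.48 FPKM in mock and 0, 0.454 and 0.145 FPKM in wounding mock (2.63, adjusted p = 0.095 from limma).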
